A study of Mus musculus with 36 samples.

Results

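Monomethyl fumarate (MMF) added to lipopolysaccharide (LPS) was compared with LPS alone in BV-2 microglia after 24 h of treatment. The comparison takes the table of that pair and all genes in it, and it rests on 6 of the 36 libraries of the series, 3 per group, with same-numbered libraries as pairs. Of the 17296 genes listed, 11584 had at least 10 normalized read counts in at least 3 of these libraries and were tested. BV-2 is an immortalised murine microglial line, labelled wild-type, so all libraries come from 1 line. In both groups the serum was lowered just before treatment and LPS from Escherichia coli was given at 600 ng/mL. The MMF group also received 30 µM MMF, and vehicle was kept at 0.2% in all treated wells. Where named, libraries of the same line at 4 h (MMF with LPS, and LPS), at 24 h with 30 µM DMF and LPS, and at 24 h with DMSO vehicle and no LPS, 3 of each, serve for comparison. Which vehicle the wells with LPS alone received is not stated. The question addressed was which transcripts of LPS-activated microglia differ when this fumarate is present.

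MMF is the monomethyl ester of fumaric acid, and cells form it from the dimethyl ester, DMF. Both are electrophiles that can react with cysteines of KEAP1, the protein that holds the transcription factor Nrf2 for degradation; freed Nrf2 binds antioxidant response elements together with small Maf proteins and switches on genes for glutathione, thioredoxin, NADPH and iron handling. LPS acts through TLR4 to turn on NF-kB and interferon-driven genes, which in microglia include chemokines, cytokines, nitric oxide synthase and acute-phase proteins.

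The 6 libraries held 15081796 to 21882585 reads, and 14734 to 14999 genes had at least 1 read. Mitochondrially encoded reads were 1.44% of the total in LPS replicate 1 and 2.04% to 2.32% in the others. Of 14 microglial markers, 12 were tested, and their summed level ran from 38737 to 50792 normalized counts with LPS and from 39715 to 50156 with MMF. Csf1r, the receptor on which microglia depend, averaged 12069 and 11837 normalized counts, whereas P2ry12 averaged 56.7 and 46.4, C1qb averaged 1.83 and 2.60, and C1qa was not listed. Astrocyte markers summed to at most 24.5 normalized counts in any of these libraries and lymphocyte markers to at most 22.9, with Aqp4, Cd8a and Ms4a1 not listed or at 0. Oligodendrocyte markers summed to 1531 to 1907 normalized counts with LPS and 1533 to 1808 with MMF, with Mog and Olig2 not listed or at 0. Neuronal markers summed to 265 to 386 with LPS and 211 to 234 with MMF; 2 of 8 were tested, Map2 was called, and Rbfox3, Snap25 and Syt1 were not listed or at 0. Map2 made up most of the neuronal sum, averaging 289 with LPS and 210 with MMF. Mbp made up most of the oligodendrocyte sum, averaging 1280 and 1177. The sums thus mainly follow single genes in 1 cell line. The part of these markers in the results was not tested. In bulk RNA, fewer cells expressing a gene and less of its RNA per cell cannot be told apart.

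With the replicate number as a block, 206 genes changed at a Benjamini-Hochberg adjusted p below 0.05 in limma, 1.78% of the genes tested. Of these, 129 were higher with MMF (1.11% of genes tested) and 77 were lower (0.665%). The changes were small. The median absolute log2 fold change of the called genes was 0.33, 40 genes passed 0.5 (23 higher and 17 lower) and 5 passed 1. Those 5 all had low counts: Nqo1 and Srp54b were higher, and Ccr2, Sirpb1c and Ltb4r1 were lower. Srp54b and Sirpb1c have near-identical neighbours with which reads may be shared, and their values are uncertain. The plot of difference against level shows that among genes with over 1000 counts catalase had the largest rise and Ly6c1 the largest fall.

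**Figure D1:**
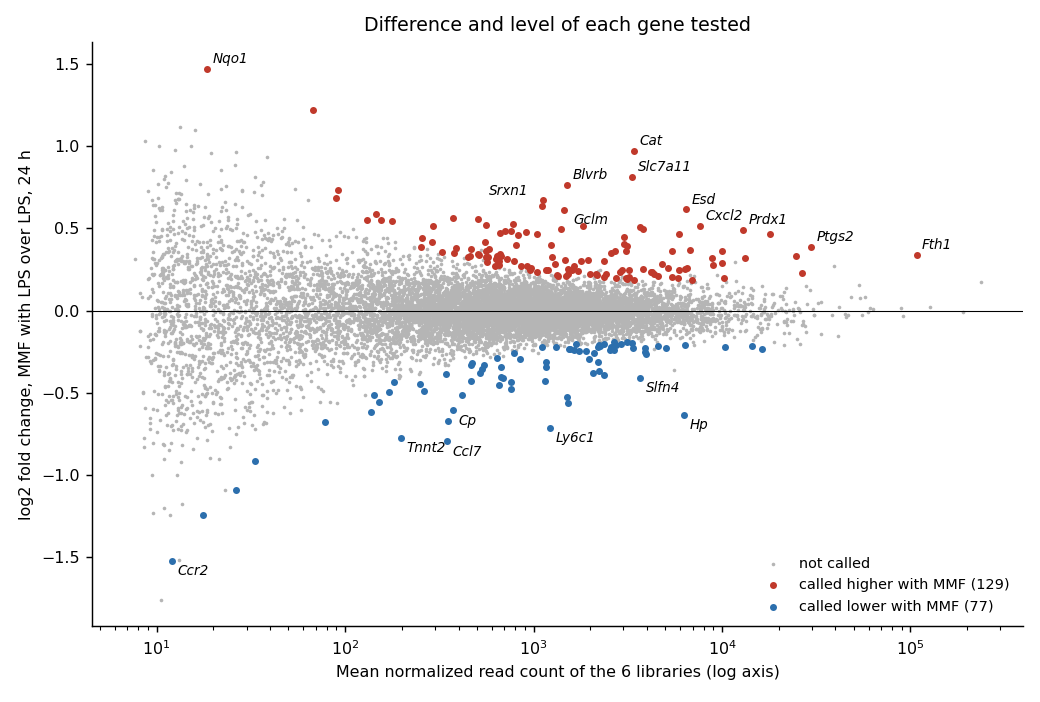
Each point is a gene tested, with its mean normalized read count over the 6 libraries on a log axis and its log2 fold change, MMF with LPS over LPS at 24 h. Red points mark the 129 genes called higher and blue points the 77 called lower; most called genes lie within 0.5 of 0, and Cat and Ly6c1 stand out among well-measured genes.

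The pairing carried the calls. Same-numbered libraries deviated together from their group means (correlations across 10134 genes of 0.43, 0.68 and 0.33). Differently numbered ones ran from -0.54 to 0.32. The highest of these, LPS replicate 1 with MMF replicate 3, lay close to the 0.33 of pair 3. Deviations from a group mean cancel out within the group, so positive values for same numbers push those for different numbers down. The block was set because same-numbered libraries vary together, so the correlations describe that choice and are no separate support for it. The median standard error was 0.072 with the block and 0.104 without. Without the block limma called 0 genes, with 440 at an unadjusted p below 0.05 and a smallest adjusted p of 0.0777. Leaving out pair 1 gave 115 calls and leaving out pair 3 gave 93, and 59 genes (42 higher, 17 lower) were called in each of the fits that left out 1 pair. All 206 called genes moved in 1 direction in the 3 pairs, as 34.7% of all genes tested did. The groups did not overlap for 103 of them, against 9.0% of all genes tested. Both follow in part from the calling, which used these same pair differences, and are no separate support.

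The antioxidant genes are shown first through their promoters, because 7 called members of the list of Nrf2 targets (G6pdx, Gclm, Me1, Pgd, Prdx1, Srxn1 and Txnrd1) have a window that holds the motif of this pathway, and 3 of them are printed. The sequences are RefSeq windows on GRCm38.p6, from 250 bases before to 50 bases after the annotated start, written 5′ to 3′ on the gene's strand. Capitals mark matches, on either strand, to the antioxidant response element TGACNNNGC or to the AP-1 element TGANTCA. Prdx1 (chr4:116685349-116685648, plus strand) encodes a peroxiredoxin that reduces hydrogen peroxide, Srxn1 (chr2:152105274-152105573, plus strand) encodes sulfiredoxin, which repairs over-oxidised peroxiredoxins, and Gclm (chr3:122245307-122245606, plus strand) encodes the modifier subunit of the enzyme that limits glutathione synthesis. Cat (chr2:103485104-103485403, minus strand), the gene of catalase, is shown because it had the largest rise among well-measured genes. The first 3 were picked from these 7, and so for holding the motif, after their values were seen. Genes called higher hold it no more often than all genes tested with a window, at 17.0% each.
Prdx1: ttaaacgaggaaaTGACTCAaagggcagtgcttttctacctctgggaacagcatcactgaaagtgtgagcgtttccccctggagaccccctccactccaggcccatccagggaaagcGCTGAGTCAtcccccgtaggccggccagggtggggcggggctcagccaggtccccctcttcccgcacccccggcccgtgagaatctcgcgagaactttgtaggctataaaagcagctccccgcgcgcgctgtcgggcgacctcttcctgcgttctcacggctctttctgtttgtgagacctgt
Srxn1: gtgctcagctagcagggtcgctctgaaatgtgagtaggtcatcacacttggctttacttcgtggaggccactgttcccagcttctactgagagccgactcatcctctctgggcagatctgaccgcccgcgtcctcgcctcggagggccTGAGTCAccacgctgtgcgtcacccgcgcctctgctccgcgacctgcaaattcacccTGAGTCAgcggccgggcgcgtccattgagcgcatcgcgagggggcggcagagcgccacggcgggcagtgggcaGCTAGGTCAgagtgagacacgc
Gclm: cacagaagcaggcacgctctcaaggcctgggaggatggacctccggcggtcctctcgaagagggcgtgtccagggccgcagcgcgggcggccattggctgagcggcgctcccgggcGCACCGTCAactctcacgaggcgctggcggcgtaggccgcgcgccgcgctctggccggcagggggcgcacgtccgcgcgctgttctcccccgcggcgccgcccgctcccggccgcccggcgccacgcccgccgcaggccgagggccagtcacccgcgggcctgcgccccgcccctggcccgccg
Cat: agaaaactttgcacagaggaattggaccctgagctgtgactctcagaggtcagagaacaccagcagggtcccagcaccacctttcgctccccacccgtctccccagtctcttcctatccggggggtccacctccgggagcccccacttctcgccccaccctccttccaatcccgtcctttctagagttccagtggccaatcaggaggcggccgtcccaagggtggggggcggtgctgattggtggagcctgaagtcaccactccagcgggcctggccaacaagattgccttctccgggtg
In Prdx1 the antioxidant element begins at base -133 from the start and an AP-1 match begins inside it at -131. In Srxn1 the antioxidant match lies downstream of the start, at 28, and AP-1 matches begin at -102 and -45. In Gclm it begins at -134. The windows of Cat and Slc7a11 hold no match to either motif, which says only that these letters are not within these 300 bases. Among other large rises, the windows of Srp54b, Blvrb, Treml4 and F2rl2 hold no antioxidant element. Nor do those of Tnnt2, Ly6c1, C1s1, Cp and Mnd1 among the large falls.

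Windows were found for 9164 of the genes tested, among them 100 called higher and 54 called lower. Genes called higher had 1.37 windows each, those called lower 1.26 and all genes 1.28, and a gene was counted once if any window held the motif. The antioxidant element occurred in 17.0% of the genes called higher, in 11.1% of those called lower and in 17.0% of all, so the genes called higher did not hold it more often than the genes tested. Within the Nrf2 target list 7 of 21 held it. The AP-1 element occurred in 14.0% of the genes called higher, 11.1% of those called lower and 6.24% of all. An antioxidant element that overlaps an AP-1 match was found in 5 of the 100 genes called higher (Hdac7, Ikbkg, Me1, Prdx1 and Procr), in none of the 54 called lower, and in 0.458% of all. A match is a description of the sequence and not a binding site.

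The list of Nrf2 targets moved up almost as a whole. Of 26 members tested, 23 rose (88.5%, beside 1.11% of all genes tested) and 0 fell. The log2 fold change was positive for all 26. The list was chosen with earlier results of these data known, so these counts are a description and not an independent test. Their median log2 fold change was 0.41, beside -0.0037 over all genes tested. Hmox1, Txn1 and Lpcat1 did not pass the test. In the fits that left out 1 pair, 15 to 20 members were called higher, DESeq2 called 18, and limma without the block called 0. The plot of gene lists places its median to the right of that of every other list.

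**Figure D2:**
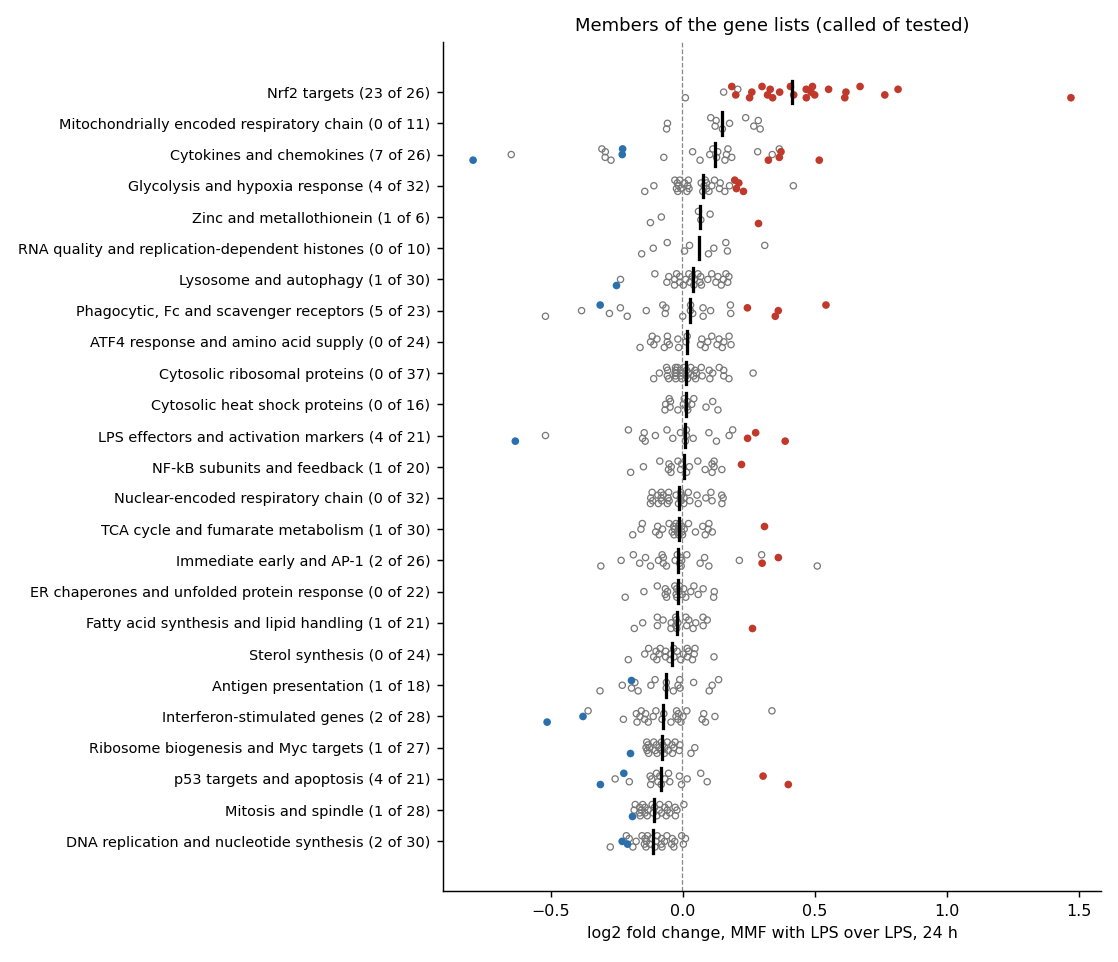
Log2 fold changes, MMF with LPS over LPS at 24 h, of the tested members of 25 gene lists, ordered by list median (black bar). Filled red and blue points are genes called higher and lower and open points were not called; the Nrf2 target list has 23 of 26 called and a median of 0.41.

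Cystine supply and glutathione synthesis were among the strongest. Slc7a11 (ENSMUSG00000027737, GRCm39 chr3:49846975-50398063), which exchanges glutamate for extracellular cystine, had 1901, 3107 and 2294 normalized counts with LPS and 3644, 5278 and 3846 with MMF. Every MMF library stood above every LPS library, and replicate 2 was the highest of both groups. Slc7a11 rose by a log2 change of 0.82 (SE 0.051, adjusted p = 1.41e-10, limma), or 1.76-fold. Gclm (ENSMUSG00000028124, GRCm39 chr3:122039206-122064381) had 1083, 1192 and 1158 counts with LPS and 1648, 1909 and 1704 with MMF, again without overlap. Its log2 fold change was 0.61 (SE 0.055, adjusted p = 8.05e-08). The catalytic partner Gclc rose less, by 0.30 (SE 0.052, adjusted p = 0.00125), and Gsr, which recycles oxidised glutathione, rose by 0.41 (SE 0.048, adjusted p = 6.42e-06). Abcc1, an exporter of glutathione conjugates, rose by 0.32 (adjusted p = 0.000208).

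The peroxide-removing genes Cat, Srxn1 and Prdx1 and the thioredoxin reductase Txnrd1 rose, and Txn1 did not pass the test. Catalase (Cat, ENSMUSG00000027187, GRCm39 chr2:103284194-103315505), which splits hydrogen peroxide and was not on the Nrf2 list, had 1885, 2629 and 2424 counts with LPS and 4229, 5109 and 4209 with MMF. The lowest MMF library exceeded the highest LPS library by a wide margin. This was the smallest p of the comparison, with a log2 change of 0.97 (SE 0.057, adjusted p = 6.02e-11), or 1.96-fold. Srxn1 (ENSMUSG00000032802) held at 837, 895 and 865 counts with LPS and at 1309, 1480.0 and 1354 with MMF, a pair of tight and separate groups. Its log2 fold change was 0.67 (SE 0.059, adjusted p = 4.63e-08). Prdx1 (ENSMUSG00000028691) rose from 10086, 11829.9 and 10400.1 counts to 13104, 17819 and 14766 (log2 fold change 0.49, SE 0.052, adjusted p = 1.54e-06). Txnrd1, the cytosolic thioredoxin reductase, rose by 0.47 (SE 0.050, adjusted p = 1.67e-06), although its span shares 1305 bases with Eid3 on the same strand. Txn1, its substrate, had a log2 fold change of 0.15 and an adjusted p of 0.169.

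Other called genes that encode detoxifying enzymes included Esd, Mgst2, Gstp1, Gstm1 and Nqo1. Esd (ENSMUSG00000021996), the esterase that hydrolyses S-formylglutathione, had 4239, 5978 and 5171 counts with LPS and 7251, 8530.4 and 7664 with MMF, with no overlap (log2 fold change 0.62, SE 0.052, adjusted p = 3.59e-08). Mgst2, a membrane glutathione transferase, rose by 0.56 (SE 0.087, adjusted p = 0.000328), and Gstp1 and Gstm1 rose by 0.50 and 0.49, with the reservation that both belong to families of close copies. Nqo1, the quinone reductase used as a reporter of Nrf2, was barely expressed: 7.01, 11.2 and 7.36 counts with LPS and 16.4, 51.5 and 18.1 with MMF. Its log2 change of 1.47 (SE 0.34, adjusted p = 0.0204) was the largest rise of any called gene, and replicate 2 with MMF stood far above the others. Osgin1 rose by 0.55, Trim16 by 0.59 and Ptgr1 by 0.42.

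Among genes tied to heme and iron, Blvrb, Slc40a1, Slc48a1, Slc11a1, Fth1 and Ftl1 rose, Hmox1 did not pass the test, and Hp and Cp fell. Blvrb (ENSMUSG00000040466), a flavin and biliverdin reductase, had 909, 1437 and 997 counts with LPS and 1478, 2506 and 1728 with MMF, every MMF library above every LPS library. It rose by 0.77 (SE 0.055, adjusted p = 1.87e-09). Slc40a1, the iron exporter ferroportin, rose by 0.52 (SE 0.070), Slc48a1, a heme transporter, by 0.50 (SE 0.055) and Slc11a1, the phagosomal metal transporter, by 0.51 (SE 0.051). The ferritin chains Fth1 and Ftl1 rose by 0.34 (adjusted p = 0.0168) and 0.33 (adjusted p = 0.00474), and their many pseudogenes can share reads. Hmox1 (ENSMUSG00000005413), which opens the heme ring, had 5394, 7701 and 6738 counts with LPS and 7151, 8638 and 6990.2 with MMF. The groups overlapped, and the log2 fold change of 0.21 (95% interval 0.093 to 0.32) had an adjusted p of 0.0554.

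Of the list members that supply NADPH or belong to the pentose phosphate pathway, Pgd, G6pdx, Me1, Taldo1 and Tkt rose, by 0.19 to 0.47. Idh1 and Idh2, which also make NADPH and were tested on the TCA cycle list, had log2 fold changes of -0.01 (adjusted p = 0.947) and -0.10 (adjusted p = 0.37). Pgd had 13256, 17296 and 14695 counts with LPS and 18792, 23249.5 and 20415 with MMF, without overlap, and rose by 0.47 (SE 0.052, adjusted p = 2.04e-06). G6pdx rose by 0.37 and Me1 by 0.26. G6pdx lies within the span of Ikbkg on the opposite strand, with 19712 shared bases, and the strand setting of the counting is not given in the sources used here, so the rise of Ikbkg (0.22, adjusted p = 0.0168) cannot be separated from that of G6pdx. Among called genes outside the list, Gbe1, which branches glycogen, rose by 0.51 and Pcx, pyruvate carboxylase, by 0.31; the span of Pcx shares 3883 bases with Lrfn4 on the other strand.

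**Figure D3:**
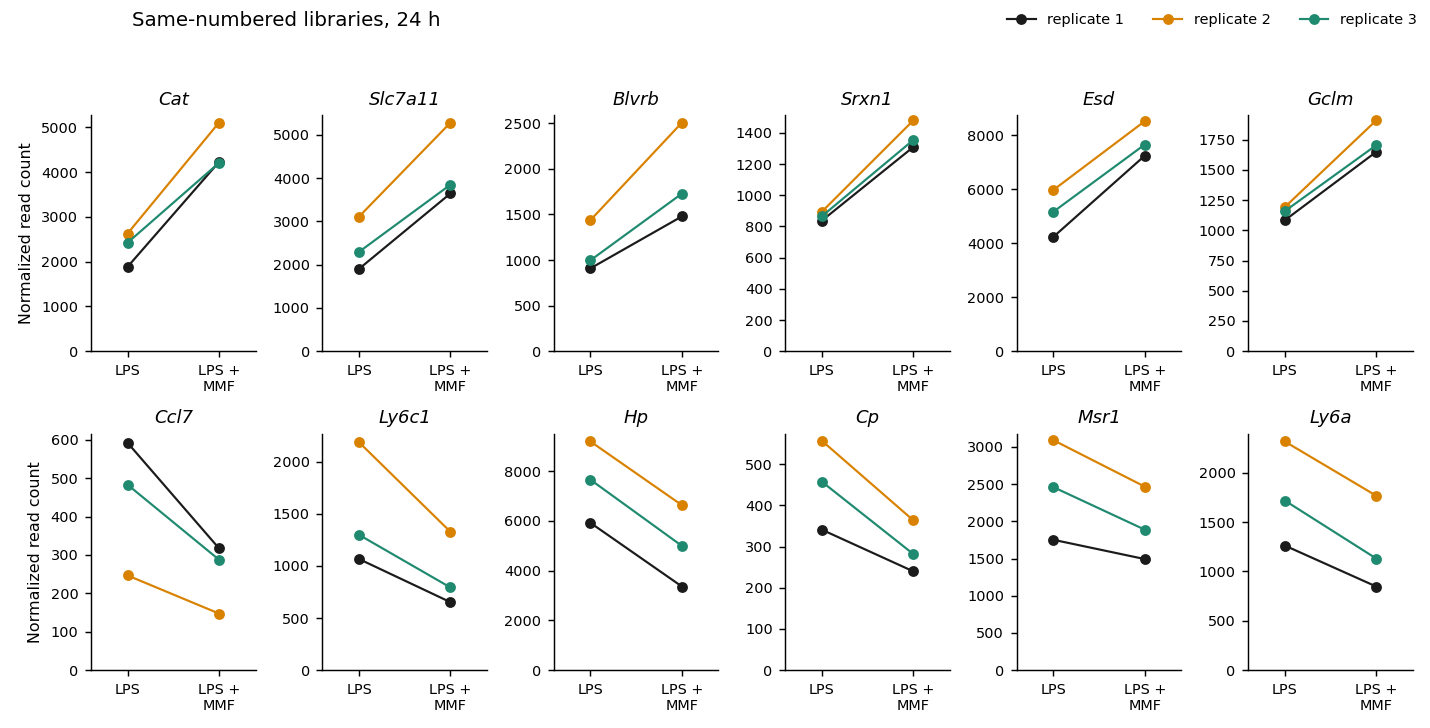
Normalized read counts, on a linear axis from 0, of 6 genes called higher (top) and 6 called lower (bottom), with a line joining the LPS and the MMF library of each replicate number. All lines of a gene run in 1 direction, while replicates of a group lie apart in most of the genes, with replicate 2 highest except for Ccl7.

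Cytokines and chemokines did not move in 1 direction. Of 26 tested, 4 rose (Cxcl2, Ccl3, Csf3 and Osm) and 3 fell (Ccl7, Ccl9 and Il1rn), with a median log2 fold change of 0.12. The 7 called were 26.9% of the list, beside 1.78% of all genes tested. Ccl7 (ENSMUSG00000035373, GRCm39 chr11:81936538-81938351), a ligand of CCR2, had 592, 247 and 483 counts with LPS and 317, 147 and 288 with MMF. The groups overlapped because replicate 2 was low in both, but each pair fell, and the log2 fold change was -0.79 (SE 0.092, adjusted p = 4.58e-06). Cxcl2 (ENSMUSG00000058427), a neutrophil attractant that signals through CXCR2, had 4792, 8054 and 5921 counts with LPS and 7055, 12011 and 7908 with MMF. Its groups overlapped too, and it rose by 0.52 (SE 0.049, adjusted p = 2.38e-07). Ccl3 rose by 0.37 (SE 0.055, adjusted p = 0.000236), Csf3, the granulocyte colony-stimulating factor, by 0.37 (SE 0.076, adjusted p = 0.00727) and Osm by 0.32 (adjusted p = 0.0477). Il1rn, the antagonist of the interleukin 1 receptor, had a log2 fold change of -0.23 (adjusted p = 0.0207), as did Ccl9 (adjusted p = 0.0205). Il36g, an interleukin 1 family cytokine outside the list, rose by 0.64 (SE 0.071, adjusted p = 2.35e-06).

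The main inflammatory cytokines were not called. Tnf had 5429, 5168 and 5395 counts with LPS and 5809.8, 5924 and 5794 with MMF, for a log2 fold change of 0.13 (95% interval 0.034 to 0.23, adjusted p = 0.188). The log2 fold change of Il1b was 0.07 (95% interval -0.051 to 0.18, adjusted p = 0.679) and that of Ccl2 was -0.07 (95% interval -0.17 to 0.030, adjusted p = 0.57). Il6 was low, with 57.2 to 77.3 counts with LPS and 81.4 to 98.9 with MMF. Its log2 fold change of 0.34 (95% interval 8.6e-05 to 0.68) had an adjusted p of 0.361. For Tnf and Il6 every MMF library stood above every LPS library, and groups did not overlap for 9.0% of all genes tested. The intervals given hold no change as large as that of Ccl7 in either direction, and those of Tnf and Il6 hold only rises.

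Receptors for such ligands moved in both directions. Cxcr2 rose by 0.49 (SE 0.066, adjusted p = 5.75e-05) with no overlap, from 607, 701 and 588 counts to 883, 949 and 820.2. Csf3r, the receptor for granulocyte colony-stimulating factor, had a log2 change of -0.51 (SE 0.084, adjusted p = 0.000597). Cx3cr1, the fractalkine receptor and the only microglial marker called, had -0.49 (SE 0.11, adjusted p = 0.0168). Ccr2 was close to the filter, with 14, 22.4 and 17.2 counts with LPS and 2.18, 8.24 and 8.22 with MMF (log2 fold change -1.52, SE 0.39, adjusted p = 0.045), and Ltb4r1, a leukotriene B4 receptor, had a log2 change of -1.09 (SE 0.27, adjusted p = 0.0313).

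Among 21 LPS effectors and activation markers, 3 rose and 1 fell (19.0% called, beside 1.78% of all genes tested), with a median of 0.01. Hp (ENSMUSG00000031722, GRCm39 chr8:110301760-110305804), which encodes the hemoglobin scavenger haptoglobin, had 5919, 9189.9 and 7653 counts with LPS and 3361, 6631 and 4994 with MMF. The groups overlapped but each pair fell, by a like number of counts and not by a like fold. The log2 change of Hp was -0.63 (SE 0.055, adjusted p = 4.63e-08). Ptgs2, the inducible cyclooxygenase, rose by 0.39 (SE 0.067, adjusted p = 0.00103), Acod1, which makes itaconate, by 0.28 (adjusted p = 0.00298) and Lcn2, which binds bacterial siderophores, by 0.25 (adjusted p = 0.00474). Nos2, the inducible nitric oxide synthase, had 5794, 9896 and 6799 counts with LPS and 5059.7, 9919 and 5062 with MMF, with a log2 fold change of -0.21 (95% interval -0.33 to -0.084) and an adjusted p of 0.0786. Cp, which encodes the ferroxidase ceruloplasmin, had a log2 change of -0.61 (SE 0.088, adjusted p = 0.000133), with 13201 bases shared with Hps3 on the other strand. Outside the list, the matrix protease Mmp9 rose by 0.56 and the protease inhibitor Slpi by 0.36.

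Several Ly6 surface proteins fell, and Ly6c1 had the largest fall among genes averaging over 1000 counts. Ly6c1 (ENSMUSG00000079018, GRCm39 chr15:74915867-74920679) had 1066, 2187 and 1299 counts with LPS and 652, 1327 and 793 with MMF. Replicate 2 was highest in both groups and made them overlap, while the fall was nearly equal in the 3 pairs (log2 fold change -0.71, SE 0.058, adjusted p = 1.6e-08). Ly6a had a log2 change of -0.52 (SE 0.058, adjusted p = 2.04e-06) and Ly6m of -0.62 (SE 0.13, adjusted p = 0.0123). These genes lie within 1 cluster on chromosome 15 and resemble each other, so reads may have been split among them. Plac8 had -0.43 (SE 0.071) and Slfn4 -0.41 (SE 0.049), the latter also with close copies.

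Of 28 interferon-stimulated genes, 0 rose and 2 fell (7.14%, beside 0.665% of all genes tested), and the median was -0.08. The log2 fold change was negative for 21 of the 28 and positive for 7. Ifit3, which restricts viral RNA, had 564, 706 and 494 counts with LPS and 402, 577 and 385 with MMF (log2 fold change -0.38, SE 0.077, adjusted p = 0.00721). Mx1, a dynamin-like antiviral GTPase, had a log2 change of -0.51 (SE 0.13, adjusted p = 0.0355). The groups overlapped for both genes, and DESeq2 called neither. Outside the list, Ifi44l had -0.40 (SE 0.072, adjusted p = 0.00158) and Ifi27l2a had -0.48 (adjusted p = 9.66e-05). An interferon response element was in the windows of 4 of 54 genes called lower (7.41%), 3 of 100 called higher (3.00%) and 3.95% of all. The heat shock element GAANNTTC was in 6 of the 54 called lower (11.1%), 4 of the 100 called higher (4.0%) and 6.91% of all. These small counts were not tested.

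Of 23 phagocytic, Fc and scavenger receptors, 4 rose (Itgal, Fcgr4, Itgax and Cd300a) and 1 fell (Msr1), with a median of 0.03. Those called were 21.7% of the list, beside 1.78% of all genes tested. Itgax, the integrin subunit CD11c, rose from 139, 129 and 168 counts to 215, 189.6 and 229, with no overlap (log2 fold change 0.54, SE 0.12, adjusted p = 0.012). Fcgr4, an activating Fc receptor, rose by 0.36 (SE 0.077, adjusted p = 0.0112). Msr1, a class A scavenger receptor, had a log2 change of -0.31 (SE 0.052, adjusted p = 0.000667). Ctss, a lysosomal cysteine protease, was the 1 member called among 30 lysosome and autophagy genes (3.33%), at -0.25 (adjusted p = 0.0116).

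Proliferation genes lay slightly lower with MMF, and few were called. Of 28 mitosis and spindle genes, 27 had a negative log2 fold change (median -0.11) and Tpx2, which nucleates spindle microtubules, was the 1 called (-0.19, SE 0.049, adjusted p = 0.0435). Of 30 DNA replication genes, 28 were negative (median -0.11) and Mcm3 (-0.23) and Pold1 (-0.21) were called. Of 27 ribosome biogenesis genes, 25 were negative (median -0.08) and Utp20 was called at -0.20. Leaving out pair 1 or pair 3 left 0 of these 4 genes called. The shares called in the mitosis, replication and ribosome biogenesis lists were 3.57%, 6.67% and 3.70%, beside 1.78% of all genes tested.

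In the glycolysis and hypoxia list 4 of 32 rose (12.5%, beside 1.11% of all genes tested). These were Aldoc, Bnip3, Gapdh and Ero1a, each by 0.20 to 0.23, and 0 of the 4 were called in any fit that left out 1 pair. In the p53 and apoptosis list 2 rose, the BH3 protein gene Bcl2l11 (0.40, SE 0.065, adjusted p = 0.000521) and Plk3 (0.30), and 2 fell, Phlda3 (-0.31) and Aen (-0.22). The 4 called were 19.0% of the 21 tested, beside 1.78% of all genes tested. The early response genes Ier3 (0.36) and Dusp5 (0.30) rose, as did the metallothionein Mt1 (0.29, SE 0.051, adjusted p = 0.00154), and Nlrc5, an activator of MHC class I genes, had -0.20 (adjusted p = 0.0477). In 4 lists 1 member each was called, and the medians were near that of all genes: NF-kB subunits and feedback (Ikbkg, of 20 tested), fatty acid synthesis (Me1, of 21), the TCA cycle (Pcx, of 30) and antigen presentation (Nlrc5, of 18), with medians of 0.01, -0.02, -0.02 and -0.06. The shares called were 5%, 4.76%, 3.33% and 5.56%, beside 1.78% of all genes tested. Sterol synthesis (24 genes tested, median -0.04), the ATF4 response (24 genes, 0.01), ER chaperones (22 genes, -0.02), cytosolic heat shock proteins (16 genes, 0.01), nuclear-encoded respiratory chain genes (32 genes, -0.01), cytosolic ribosomal proteins (37 genes, 0.01) and the RNA quality list (10 genes, 0.06) had 0 called in limma, edgeR or DESeq2, with 4, 8, 4, 1, 4, 6 and 4 genes at an unadjusted p below 0.05 in limma. The lists do not hold every gene of a class: outside them, the ribosomal protein genes Rps27a (0.32) and Rps21 (0.26) were called higher and Rpl23a (-0.38, with close copies) lower, and the respiratory chain genes Ndufa3 (0.35) and Uqcrq (0.20) were called higher. The 11 mitochondrially encoded genes also had 0 called by these tools, 3 of them at an unadjusted p below 0.05 in limma, with a median of 0.15. LPS replicate 1 had the low mitochondrial share given above, and its part in that median was not tested.

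Across time, the MMF difference was compared with that at 4 h in cells given the same doses, in separate libraries. In the fit of these 12 libraries, 483 genes were called at 4 h (4.08% of 11839 tested), 231 higher (1.95%) and 252 lower (2.13%) with MMF. Of the 129 genes called higher at 24 h, 43 were called higher at 4 h and 1 was called lower. Of the 77 called lower, 29 were called lower and 0 higher. Of the Nrf2 targets, 14 of 26 rose at 4 h, with a median of 0.33. Among the interferon-stimulated genes 16 of 29 fell at 4 h.

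The difference between the times itself was called for 5 genes (0.0422% of genes tested), and these were picked out after their values were seen. In replicates 1, 2 and 3, Hmox1 had 3616, 4785 and 3688 counts with LPS at 4 h and 8128, 9643 and 7986 with MMF, every MMF library far above every LPS library. On the same scale at 24 h it had 5125, 7335 and 6451 with LPS and 6828, 8219 and 6680.3 with MMF, and the groups overlapped. The log2 fold change thus went from 1.10 to 0.21, a difference of -0.89 (SE 0.0996, adjusted p = 0.00153). Ccl2, a ligand of CCR2, had 6185, 3393 and 4820.5 counts with LPS at 4 h and 3469, 2031 and 2457 with MMF, with each pair lower. At 24 h the pairs lay close together, at 3217 against 3189.8, 2247 against 2049 and 3682 against 3515, and the log2 fold change went from -0.85 to -0.07 (difference 0.78, SE 0.087, adjusted p = 0.00153).

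Ifit1, an antiviral RNA-binding protein, had a log2 fold change of -0.85 at 4 h and -0.22 at 24 h (difference 0.63, adjusted p = 0.0311). Its level was also lower at 24 h, at 543 to 892 counts over both groups against 1409 to 5596 at 4 h. For Ccl3 the values were -0.21 and 0.37 (difference 0.57, adjusted p = 0.0457), and the 3 pairs were lower with MMF at 4 h and higher at 24 h. Ly6c1 showed the opposite order, with -0.08 at 4 h, where 2 pairs lay lower and 1 higher, and -0.71 at 24 h (difference -0.63, adjusted p = 0.0267). Leaving out pair 1 or pair 3 at both times gave 0 such genes, and leaving out pair 2 gave 122. Apart from Hmox1, no member of the Nrf2 list, nor Cat, passed the test of a difference between the times; for Slc7a11 the values were 1.21 at 4 h and 0.82 at 24 h (adjusted p = 0.203).

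**Figure D4:**
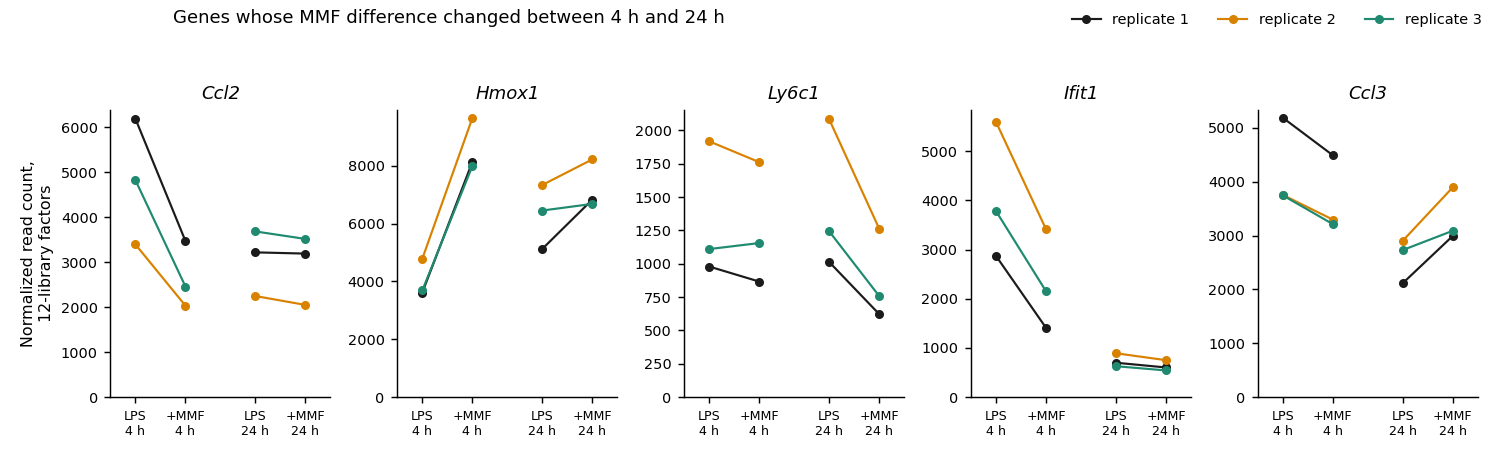
Normalized read counts of the 5 genes whose MMF difference changed between 4 h and 24 h, on factors shared by the 12 libraries and on a linear axis from 0, with a line for each replicate number within a time. The Hmox1 groups lie apart at 4 h and overlap at 24 h. Ccl2 falls in each pair at 4 h, with groups that overlap, and its pairs lie close together at 24 h. Ly6c1 falls in each pair at 24 h, where its groups overlap.

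MMF was also compared directly with DMF at 30 µM, 24 h and the same LPS dose, a single pair of compounds that differ by 1 methyl ester group. Of 11665 genes tested, 4639 differed (39.8%), of which 2482 were higher (21.3%) and 2157 lower (18.5%) with MMF than with DMF, with p-values adjusted over all genes. Within the Nrf2 list 7 of 26 were higher with MMF and 6 lower, and the median log2 difference was 0.04, beside 0.0063 over all genes. Slc7a11 was lower with MMF than with DMF (log2 fold change -0.73, SE 0.076, adjusted p = 1.3e-05), as were Srxn1 (-0.51, adjusted p = 0.000388), Osgin1 (-0.94, adjusted p = 2.61e-05) and Prdx1 (-0.27, adjusted p = 0.00281). Of the list members, Gsr, Pgd and Slc48a1 were higher with MMF, by 0.22, 0.22 and 0.57. Gstp1, outside the list, was higher by 0.49. The extremes within the list were Me1, at 0.76 (adjusted p = 6.86e-06), and Sqstm1, at -0.95 (adjusted p = 2.79e-06). For Cat the difference was -0.09 (95% interval -0.21 to 0.034, adjusted p = 0.232), for Gclm -0.10 (95% interval -0.23 to 0.032, adjusted p = 0.214), for Blvrb -0.03 (95% interval -0.16 to 0.099, adjusted p = 0.703) and for Esd 0.02 (95% interval -0.085 to 0.13, adjusted p = 0.764), none of which passed the test.

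The cytokine list separated the compounds more clearly, with 17 of 26 lower and 0 higher with MMF than with DMF (median -0.76). Ccl7 was at 238 ± 85.2 normalized counts (SD, n = 3) with MMF and at 879 ± 117 with DMF, a log2 difference of -1.94 (SE 0.15, adjusted p = 1.34e-06). With LPS alone it was at 418 ± 167 on the same scale, so that its value against LPS was -0.79 for MMF and 1.15 for DMF, which called 39.1% of genes against LPS. Il1b differed by -0.87 (adjusted p = 1.68e-06), Ccl2 by -0.87 (adjusted p = 1.57e-06) and Cxcl2 by -1.07 (adjusted p = 4.36e-06), while the difference of Tnf, -0.08 (95% interval -0.20 to 0.033, adjusted p = 0.239), did not pass. Hp was at 7207 ± 1563 counts with LPS, 4748 ± 1576 with MMF and 1717 ± 228 with DMF, and at 1409 ± 371 in vehicle-treated cells without LPS. The direct difference of Hp between MMF and DMF was 1.42 (SE 0.12, adjusted p = 2.83e-06), and that of Cp was 0.90 (adjusted p = 7.36e-05). The comparisons with LPS share the LPS libraries and are therefore set side by side only.

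Other lists showed where the compounds parted most. All 24 sterol synthesis genes were higher with MMF than with DMF (median 1.36), as were all 28 mitosis genes (median 0.65) and 27 of 30 DNA replication genes, while 20 of 24 ATF4 response genes and 20 of 28 interferon-stimulated genes were lower. Of these 5 lists, MMF against LPS had called 0, 1, 2, 0 and 2 members.

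**Figure D5:**
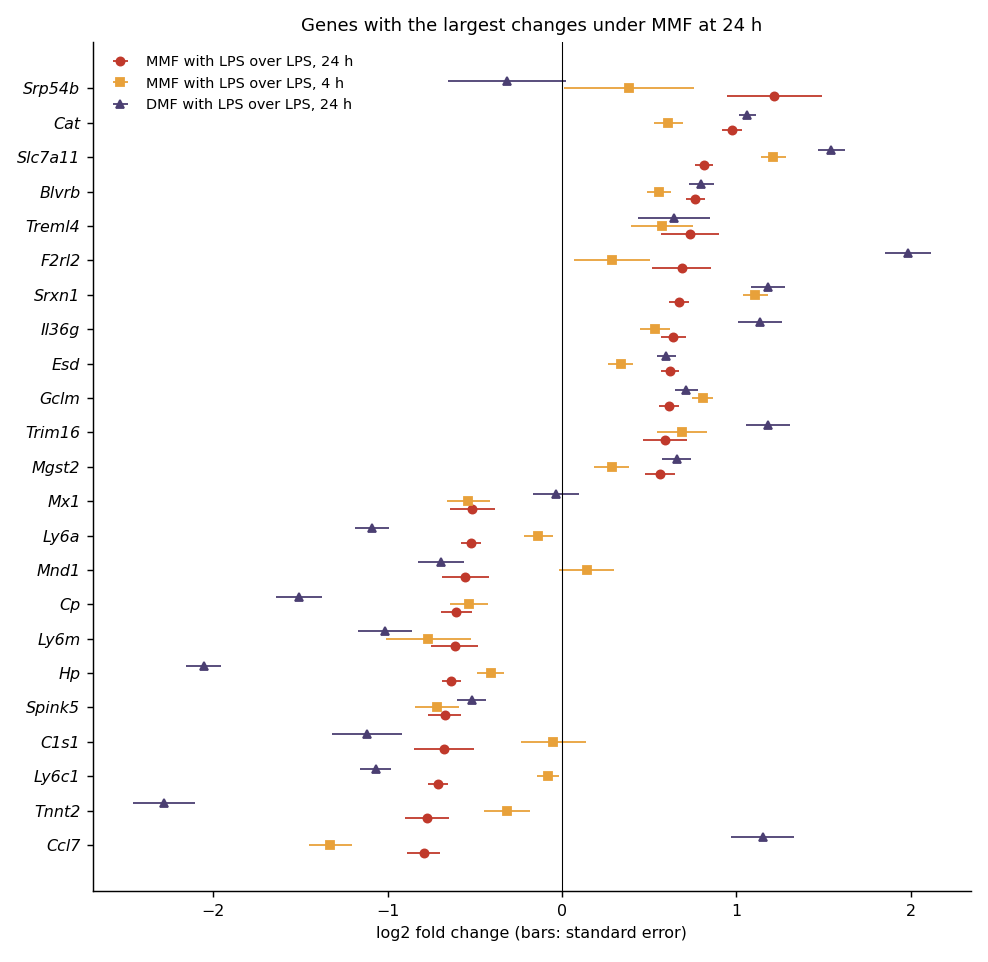
Log2 fold changes against LPS, with standard errors as bars, of the 12 largest rises and 11 of the 12 largest falls with MMF at 24 h that met the naming rule, beside MMF at 4 h and DMF at 24 h. Ccl7 is lower with MMF at both times and higher with DMF, and Hp is lower in all 3; the MMF and DMF values at 24 h share the LPS libraries.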

How the data were processed

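RNA-seq was analysed in 6 BV-2 libraries, MMF with LPS and LPS at 24 h, with the 4 h, DMF and DMSO libraries used where named. Per the labels, poly(A)+ RNA was sequenced, and the submitters' processing notes name cutadapt 4.4, Trimmomatic 0.39, FastQC 0.12.1, HISAT2 2.2.1, HTSeq 2.0.3, DESeq2 1.40.2 and GRCm39. The strand setting of the counting is not given in the sources used here. The values the authors deposited are signal values, read counts divided by size factors within each pairwise table; whole reads were recovered from them, 100% of 626964 values lying within 0.01 of a whole read. The tables also hold the authors' fold changes and p-values, which were not used. All columns of per-sample values used were mapped by name.

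The main test was limma 3.58.1 (R 4.3.3) with an intensity trend on log2(normalized count + 1), so fold changes of low genes are understated. Genes with a normalized count of at least 10 in at least 3 libraries entered, group and replicate number were terms, and calls were made at a Benjamini-Hochberg adjusted p below 0.05. All adjusted p-values in the text are from limma unless another tool is named. The labels say that each experiment was repeated 3 times. Same-numbered libraries were taken as pairs because they vary together (correlations 0.43, 0.68 and 0.33 over 10134 genes, and -0.54 to 0.32 for different numbers). These correlations come from the values tested and are no separate support for the pairing. In the blocked fit of MMF against LPS, p-values rest on the spread of the 3 pair differences, not on that between all libraries. The variance of each gene was drawn toward a trend over all genes. With 24.2 total degrees of freedom, the p-values lean largely on other genes. No 2 replicates agreed within sampling noise. edgeR 4.0.16 and DESeq2 1.42.0 on recovered reads, TMM factors, other pseudocounts and filters, a GC and length correction and leaving out pairs were alternatives. Times were compared by an interaction in a fit of 12 libraries with factors recomputed jointly, and MMF and DMF in their own table. Group means with SD across 3 or more groups are on such joint factors. LPS against DMSO had no block.

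Named genes are called genes whose higher group averages 50 or more and whose 3 pairs move 1 way (the 12 largest rises and falls and 5 smallest p each way), called members of the 25 gene lists and the 2 highest members of each list. Ccr2, Sirpb1c, Ltb4r1, genes called between times and other genes outside this rule were chosen after their values were seen. The members and lists were chosen with earlier results of these data known. Results of 1 gene that met the naming rule and of 1 marker are not reported here. Scripts were tested on simulated data. Promoter windows are from RefSeq on GRCm38.p6, matched by symbol; gene positions are those of the tables on GRCm39.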

Additional observations from a re-analysis of the deposited data

Results flagged for a closer look

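The MMF difference at 24 h differed from that at 4 h for 5 genes by the interaction test of limma at an adjusted p below 0.05, with the replicate number within each time as a block. The difference of the log2 fold changes, 24 h minus 4 h, was 0.78 for Ccl2, -0.89 for Hmox1, -0.63 for Ly6c1, 0.63 for Ifit1 and 0.57 for Ccl3. The number of such genes was 0 without pair 1 or pair 3 and 122 without pair 2, and what sets the 3 apart was not tested. Ly6c1 has close copies with which its reads may be shared.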

How the results depend on the processing

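The replicate block decided the count of genes called between MMF and LPS. With it 206 genes were called, and without it 0 (2 once LPS replicate 2 was left out, 0 when any other library was). DESeq2 with the block called 90 genes, 87 of them among the 206, no filter on low counts gave 68 (67 shared), 4 LPS-treated groups in 1 fit gave 23 (all shared), a limit of 0.5 on the absolute log2 fold change gave 40, and the 24 h effect in the 12-library fit, added after seeing the data, gave 41. Leaving out 1 pair gave 93 to 160. The count stayed within 1.5 times with edgeR (198, 193 shared), TMM factors (197), pseudocounts of 0.5 and 5 (206 and 202), a filter of 50 (235) and removal of a GC and length trend (186). Genes whose difference changed with time numbered 5 with the block, 0 without it, 20 by DESeq2 and 0 to 122 without 1 pair. MMF against DMF gave 4639 genes with the block, 2508 without it, 3029 by DESeq2 and 3322 to 4453 without 1 pair. Of 120 named genes, 76 were called; all 76 lost the call without the block, 59 with 4 groups in 1 fit, 36 with DESeq2, 43 without a filter and 30 to 39 without 1 pair, and none changed direction while called. The cause of these moves was not tested. With 3 pairs and a median standard error of 0.072, small changes of low genes could not be resolved.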
